A study of Pan troglodytes with 217 samples.

Results

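SPP1, TNFAIP6, CD44, HAS2, HAS3 and VCAN, 6 of the 33729 gene identifiers in the count table, were followed through single cells of chimpanzee blastoids. SPP1 and TNFAIP6 were chosen by their fold over all other cells, which led the epiblast-like cells in an earlier look at the same counts. The other 4 were added because they encode a receptor of the SPP1 protein and of hyaluronan, enzymes that make hyaluronan and a matrix protein that binds it. All 6 symbols matched 1 identifier each: ENSPTRG00000016266 for SPP1, ENSPTRG00000012533 for TNFAIP6, ENSPTRG00000003501 for CD44, ENSPTRG00000020544 for HAS2, ENSPTRG00000008273 for HAS3 and ENSPTRG00000017055 for VCAN.

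Blastoids are blastocyst-like structures that form from naive pluripotent stem cells, here chimpanzee induced pluripotent stem cells kept in N2B27 medium with PD032590, XAV939, Gö6983, human LIF, Activin-A, IL6 and the EZH2 inhibitor EPZ-6438. Cell clusters were moved through media with PD, A83, LPA and Y-27632, then A83, LPA and Y-27632, then N2B27 alone, and the day 4 blastoids were dissociated after most of the mural trophectoderm had been removed by hand. All cells were of this 1 condition, and neither the labels nor the study's methods assign a cell to a blastoid, a line or a batch. The cells therefore formed 1 sample without replicates, no test was made, and the 95% intervals below cover counting error only.

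SPP1 encodes osteopontin, a secreted phosphoprotein that binds integrins and CD44. Hyaluronan is a long unbranched sugar polymer that the synthases HAS1, HAS2 and HAS3 extrude into the matrix. CD44 is its main cell surface receptor, versican (VCAN) is a large proteoglycan that binds along it, and TNFAIP6 (TSG-6) binds it and transfers onto it the heavy chains of inter-alpha-trypsin inhibitor. TNFAIP6, versican and the heavy chains are best known together from the hyaluronan-rich coat of the ovulating egg, and osteopontin and CD44 from the interface between embryo and uterus.

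At least 8000 detected genes were found in 88.9% of the cells, which were kept, and 24 cells were left out. The gene totals of the kept cells ran from 1679888 to 25630392 reads. No pair of cells had the same counts. The cells fell into 4 clusters, which were named from marker lists: 50 epiblast-like, 32 hypoblast-like and, in a pair of clusters of 60 and 51 cells, the trophectoderm-like cells. All 8 epiblast markers were at 1 CPM or more in the epiblast-like cells, all 8 hypoblast markers in the hypoblast-like cells and all 10 trophectoderm markers in the trophectoderm-like cells. That alone does not separate the classes, since all 10 trophectoderm markers also reached 1 CPM in epiblast-like and 9 in hypoblast-like cells, and 7 epiblast markers did in hypoblast-like cells. Each class was named by the list with the highest mean standardized level, in which 7 of the 8 hypoblast markers took part, since FOXA2 had a read in fewer than 20 cells. Median totals of the 3 classes lay close together, at 3951119, 3978822.5 and 3960857 reads. Levels are in CPM, the reads of a gene per 1000000 reads on all genes, and pooled levels sum the reads of all cells of a class. Of the cells nearest the limit, 3 just outside (7620, 7922 and 7984 genes) held SPP1 at 0, 0 and 156.9 CPM and VCAN at 0, 20.1 and 24.9 CPM, and 3 just inside (8199, 8348 and 8385 genes) held SPP1 at 0, 4.81 and 0 CPM and VCAN at 0, 69.7 and 0 CPM. Since the classes were built from the same counts, every level by class is a description. With the members and the other listed genes left out of the clustering, every cell kept its class. The markers and all other identifiers stayed in, so this does not make the levels by class independent of the clustering.

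**Figure D1:**
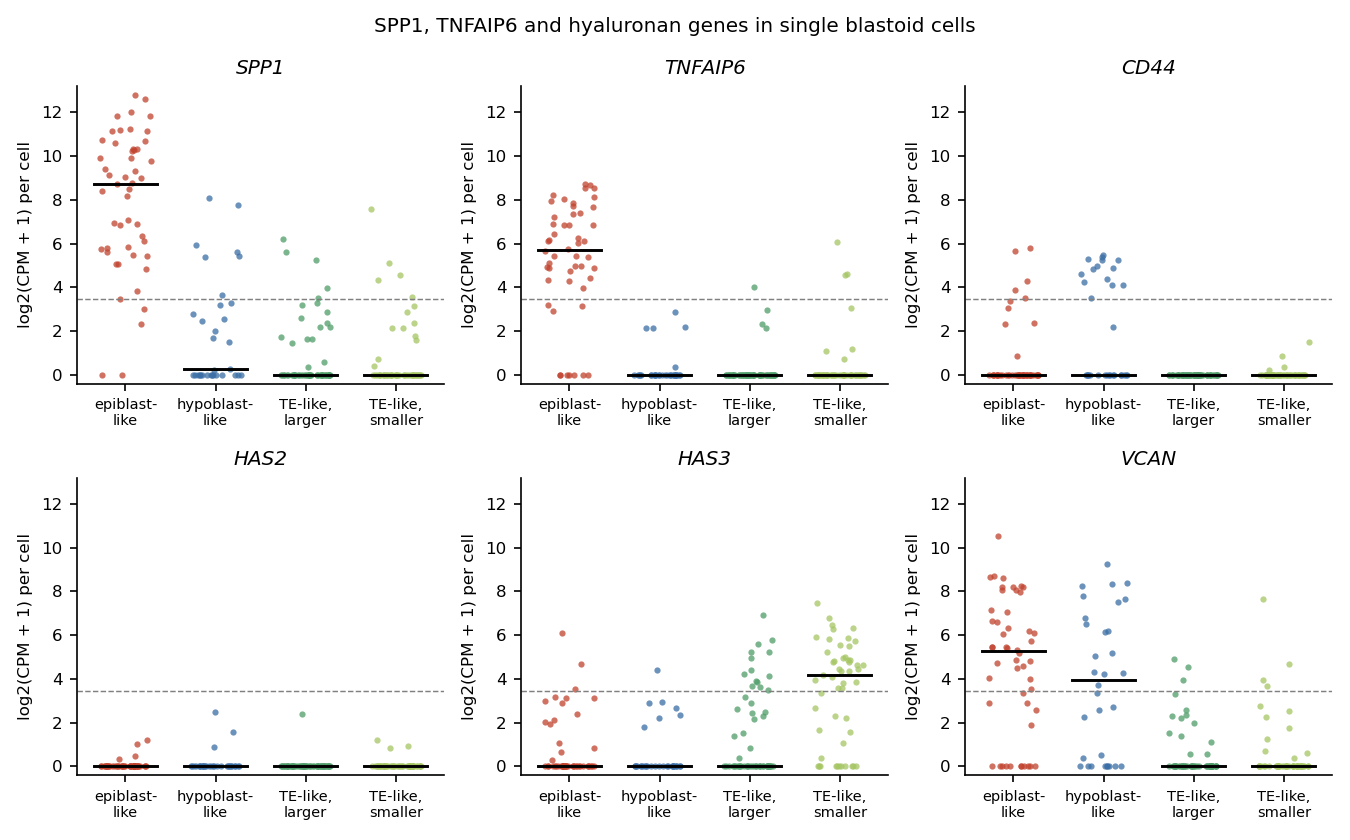
Level of each of the 6 genes in every cell, as log2(CPM + 1) on the vertical axis, for epiblast-like (50), hypoblast-like (32) and trophectoderm-like cells (TE-like; clusters of 60 and 51). Each point is 1 cell, the black bar is the median of the group and the dashed line is 10 CPM. SPP1 and TNFAIP6 points crowd the epiblast-like column, HAS3 points the smaller trophectoderm-like column, and VCAN spans the epiblast- and hypoblast-like columns.

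SPP1 varied widely among the epiblast-like cells. It ran from 0 CPM through a median of 427 CPM to 7028 CPM, with 33 of the 50 cells at 100 CPM or more and 16 at 1000 CPM or more. A read was found in 48 of 50 cells (96.0%, 95% interval 86.3% to 99.5%), and 45 (90%, 78.2% to 96.7%) were at 10 CPM or more. The hypoblast-like cells ran from 0 through a median of 0.185 to 268 CPM, with 7 of 32 cells (21.9%, 9.28% to 39.97%) at 10 CPM or more. Of the trophectoderm-like cells 79 had no read and 32 (28.8%, 20.6% to 38.2%) had one, the highest stood at 190.5 CPM, and 10 (9.01%, 4.41% to 15.9%) were at 10 CPM or more. The classes overlapped, but 427 CPM, the median of the epiblast-like cells, was above the highest cell of both other classes.

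Pooled, SPP1 stood at 983 CPM (978 to 987), 19.3 CPM (18.6 to 20.1) and 5.12 CPM (4.93 to 5.32) in epiblast-, hypoblast- and trophectoderm-like cells. That was 50.9-fold higher in epiblast-like than in hypoblast-like cells and 191.8-fold higher than in trophectoderm-like cells. SPP1 ranked 1st and TNFAIP6 2nd of the 3845 identifiers at 50 CPM or more, and read in 50% or more of the class, by the fold over all other cells (123.6-fold and 78.7-fold). The next was FGF4 at 67.1-fold, the epiblast's signal to the hypoblast. These ranks chose the pair and are not a finding. A few cells carried much of the pooled level: the top cell held 14.2% of the epiblast-like SPP1 reads and the top 5 cells 43.8%. In the other classes the pooled level leaned on single cells, with 45.6% of the hypoblast-like and 47.5% of the trophectoderm-like SPP1 reads in 1 cell. Without the cell holding the most SPP1 reads in each class the 3 levels were 860.3, 10.95 and 2.72 CPM.

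Most cells outside the epiblast-like class with SPP1 at 10 CPM or more also held epiblast markers. Of the 10 trophectoderm-like cells at 10 CPM or more, 7 had at least 3 of the 8 epiblast markers at 10 CPM or more, against 4 of all the other trophectoderm-like cells. Of the 7 such hypoblast-like cells 6 had them, against 11 of the other 25. Summed over the 8 markers, the level ran from 989 to 5913 CPM in epiblast-like cells, from 84.1 to 1855 CPM in hypoblast-like and from 0 to 626 CPM in trophectoderm-like cells. Doublets were not called, and the part of mixed wells in these SPP1 reads was not tested.

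TNFAIP6 was found mainly in the epiblast-like cells. Epiblast-like cells ran from 0 CPM through a median of 50.6 CPM to 423 CPM, with a read in 43 of 50 cells (86%, 73.3% to 94.2%) and 40 (80%, 66.3% to 89.97%) at 10 CPM or more. In hypoblast-like cells 5 of 32 held a read, the highest cell was at 6.35 CPM and none reached 10 CPM (0 of 32, 0% to 10.9%). In trophectoderm-like cells 11 (9.91%, 5.05% to 17.04%) held a read and 4 (3.604%, 0.990% to 8.97%) reached 10 CPM, the highest at 65.3 CPM. The pooled level was 99.5 CPM (98.1 to 100.8) in epiblast-like cells. It was 0.529 CPM (0.411 to 0.671) in the hypoblast-like class and 1.45 CPM (1.34 to 1.55) in the trophectoderm-like class, so the epiblast-like level was 188.01-fold and 68.8-fold higher. The order of the last pair rested on few cells: 1 cell held 39.5% of the trophectoderm-like reads, and without the highest cell of each class the levels were 0.360 and 0.883 CPM. That trophectoderm-like cell, at 65.3 CPM, had no SPP1, VCAN, HAS1 or NANOG read. The order of hypoblast- and trophectoderm-like cells reversed with clusters on UMAP coordinates (log2 ratio 0.15) and with mean log2(CPM + 1).

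**Figure D2:**
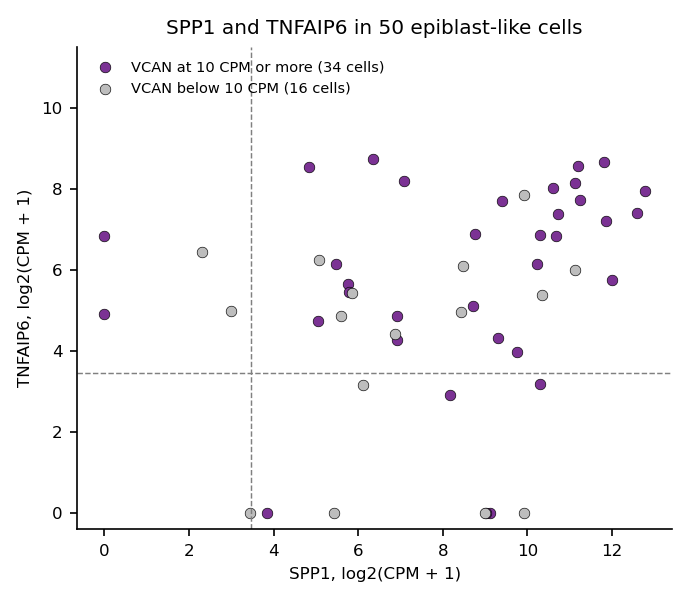
SPP1 (horizontal) against TNFAIP6 (vertical) in the 50 epiblast-like cells, both as log2(CPM + 1), with 10 CPM as dashed lines. Purple points are the 34 cells with VCAN at 10 CPM or more and grey points the other 16. Most cells, 36, lie above both lines, and no cell lies at 0 for both genes.

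Within the epiblast-like cells both SPP1 and TNFAIP6 were at 10 CPM or more in 36 of 50 cells (72%, 57.5% to 83.8%), SPP1 alone in 9, TNFAIP6 alone in 4 and neither in 1. The product of their separate shares, 45 and 40 of 50 cells, is also 36 cells. With genes this frequent the count could only lie between 35 and 40, so it says little about whether they go together. The products were 30.6 cells for SPP1 and VCAN, found together in 32, and 27.2 for TNFAIP6 and VCAN, found together in 29. Of SPP1, TNFAIP6 and VCAN, all 3 were at 10 CPM or more in 27 cells, 2 in 16 cells, 1 in 6 cells and none in 1 cell. Their levels went together only loosely, with a Spearman rho of 0.38 for SPP1 and TNFAIP6, 0.42 for TNFAIP6 and VCAN and 0.34 for SPP1 and VCAN over the 50 cells. On log2(CPM + 1), Pearson's r for SPP1 and TNFAIP6 was 0.25. Each cell had its own library, but cells of 1 blastoid cannot be told from cells of another, so these are descriptions. The rho of the 3 genes with the total reads per cell was between -0.10 and -0.03.

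CD44, the receptor that binds both hyaluronan and osteopontin, was highest not in the class with the most SPP1 but in the hypoblast-like cells. In hypoblast-like cells CD44 ran from 0 CPM through a median of 0 to 43.8 CPM, with a read in 15 of 32 cells (46.9%, 29.1% to 65.3%), of which 14 were at 10 CPM or more. Epiblast-like cells ran from 0 through a median of 0 to 54.1 CPM, with a read in 10 of 50 cells (20%, 10.03% to 33.7%) and 5 (10%, 3.33% to 21.8%) at 10 CPM or more. Trophectoderm-like cells had 19 CD44 reads in all, in 4 cells, the highest at 1.82 CPM. Of the hypoblast-like cells 17 thus had no CD44 read, 1 was at 3.58 CPM and the 14 at 10 CPM or more ran from 10.4 through 28.4 to 43.8 CPM.

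The pooled CD44 level was 12.2 CPM (11.6 to 12.9) in hypoblast-like cells, 2.95 CPM (2.72 to 3.19) in epiblast-like cells and 0.0368 CPM (0.0222 to 0.0575) in trophectoderm-like cells. It was 4.16-fold higher in hypoblast-like than in epiblast-like cells and 333-fold higher than in trophectoderm-like cells. Without the cell holding the most CD44 reads in each class the levels were 11.04, 1.92 and 0.0198 CPM in the same order, so hypoblast-like stayed above epiblast-like cells, by 2.52 instead of 2.06 on the log2 scale. The 333-fold value rests on few reads: its log2 value was 8.38 with a counting interval of 7.73 to 9.11, and the difference of mean log2(CPM + 1) was 2.11. No read was found in the larger trophectoderm-like cluster (0 of 60 cells, exact interval up to 5.96%). The 5 epiblast-like cells with CD44 at 10 CPM or more all had SPP1 at 10 CPM or more, as 45 of the 50 cells did, and none of them had 3 hypoblast markers at that level. CD44 and SPP1 were together at 10 CPM or more in 8 cells over all classes.

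VCAN was shared by the epiblast- and hypoblast-like cells. Epiblast-like cells ran from 0 through a median of 37.01 to 1476 CPM, with a read in 39 of 50 cells (78%, 64.04% to 88.5%) and 34 (68%, 53.3% to 80.5%) at 10 CPM or more. Hypoblast-like cells ran from 0 through a median of 14.9 to 599 CPM, with a read in 23 of 32 cells (71.9%, 53.3% to 86.3%) and 17 (53.1%, 34.7% to 70.9%) at 10 CPM or more. In trophectoderm-like cells 26 (23.4%, 15.9% to 32.4%) had a read and 7 (6.31%, 2.57% to 12.6%) reached 10 CPM. The first pair of classes overlapped over nearly their whole range, though the median and both shares were higher in the epiblast-like cells. The intervals cover counting error only and cannot show whether these classes were alike.

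Pooled VCAN stood at 114.1 CPM (112.6 to 115.5), 94.6 CPM (92.9 to 96.3) and 3.68 CPM (3.52 to 3.85) in epiblast-, hypoblast- and trophectoderm-like cells. The first was 1.21-fold the second, 30.97-fold higher than the third, and the second was 25.7-fold higher than the third. A single trophectoderm-like cell at 199.4 CPM held 69.2% of the VCAN reads of its class. It was also the cell with the most SPP1 of its class. Without the highest cell of each class VCAN stood at 96.4, 76.5 and 1.15 CPM.

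HAS3 and HAS1 were highest in different classes. HAS3 was highest in the trophectoderm-like cells, where it ran from 0 through a median of 3.67 to 175.8 CPM, with a read in 65 cells (58.6%, 48.8% to 67.8%) and 46 (41.4%, 32.2% to 51.2%) at 10 CPM or more. Epiblast-like cells had a HAS3 read in 16 of 50 cells, 3 (6%, 1.25% to 16.5%) at 10 CPM or more, and hypoblast-like cells in 7 of 32, 1 (3.13%, 0.0791% to 16.2%) at that level. The 3 epiblast-like cells with HAS3 had 6 to 9 of the 10 trophectoderm markers at 10 CPM or more, where the other 47 had 3 to 8. The part of these markers in the HAS3 reads was not tested.

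Pooled HAS3 stood at 18.997 CPM (18.6 to 19.4) in trophectoderm-like, 2.90 CPM (2.67 to 3.13) in epiblast-like and 1.52 CPM (1.31 to 1.75) in hypoblast-like cells. The trophectoderm-like level was 6.56-fold the epiblast-like and 12.5-fold the hypoblast-like level. Without the highest cell of each class the levels were 15.6, 1.63 and 0.785 CPM. Within the trophectoderm-like class HAS3 differed by cluster. The smaller cluster ran from 0 through a median of 17.3 to 175.8 CPM with 32 of 51 cells (62.7%, 48.1% to 75.9%) at 10 CPM or more, and the larger from 0 through a median of 0 to 119.1 CPM with 14 of 60 (23.3%, 13.4% to 36.04%). The clusters overlapped, with pooled levels of 32.1 and 6.67 CPM (4.81-fold), and 5.32-fold without the highest cell of each.

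HAS2 was near the limit of detection everywhere. Its 80 reads lay in 11 cells, namely 4 epiblast-like, 3 hypoblast-like and 4 trophectoderm-like cells, and the highest cell was at 4.67 CPM. No cell reached 10 CPM in any class. Pooled levels were 0.0604, 0.288 and 0.0581 CPM, and with so few cells no order of the classes was read from them. The kit was not stated to mark strand, so HAS2 reads cannot be told from reads of an antisense transcript at that locus.

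HAS1, which was not among the 6 genes but belongs to the same enzyme family, was highest in the epiblast-like cells. It ran from 0 through a median of 35.9 to 216.8 CPM there, with a read in 47 of 50 cells (94%, 83.5% to 98.7%) and 41 at 10 CPM or more. Of the hypoblast-like cells 12 of 32 and 12 (10.8%) of the trophectoderm-like cells were at 10 CPM or more. A HAS1 read was nevertheless found in 47 (42.3%) of the trophectoderm-like cells, 29 of 60 in the larger and 18 of 51 in the smaller cluster, where HAS3 was read in 25 and 40. Pooled HAS1 was 48.3 CPM (47.4 to 49.3), 16.6 CPM (15.9 to 17.4) and 3.55 CPM (3.39 to 3.72) in epiblast-, hypoblast- and trophectoderm-like cells. In epiblast-like cells HAS1 and SPP1 were together at 10 CPM or more in 36 of 50 cells, with a rho of 0.17 between them, and HAS1 and TNFAIP6 in 32 cells, with a rho of 0.00. The products of their shares are 36.9 and 32.8 cells.

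**Figure D3:**
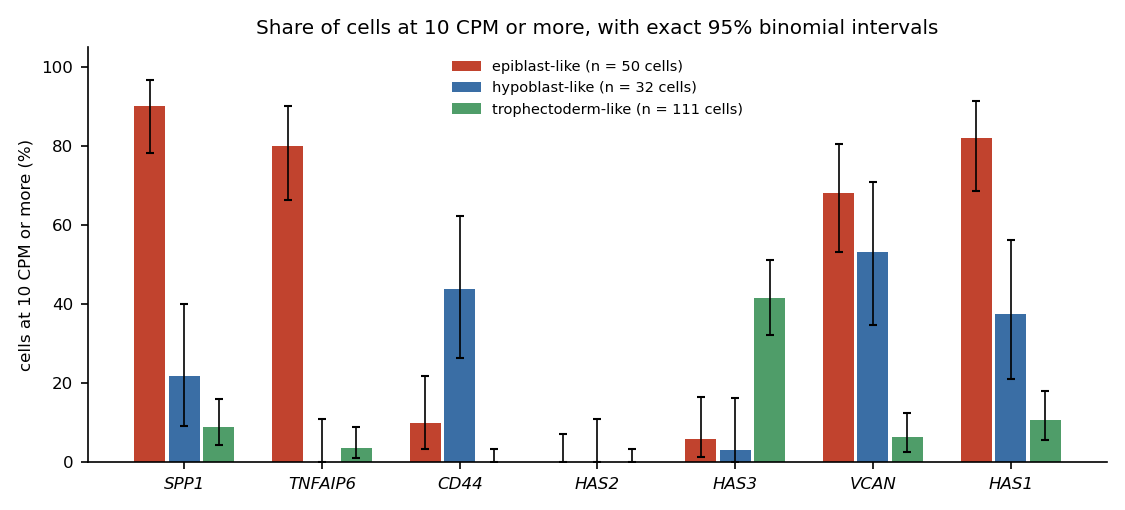
Percent of cells at 10 CPM or more (vertical axis, from 0) for the 6 genes and HAS1 in epiblast-like (50 cells), hypoblast-like (32) and trophectoderm-like cells (the clusters of 60 and 51 cells as one class). Error bars are exact 95% binomial intervals over cells. SPP1 reaches 90% and TNFAIP6 80% of epiblast-like cells, CD44 is highest in hypoblast-like cells at 43.8%, and HAS3 in trophectoderm-like cells at 41.4%.

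A gene was called past a fold of 2 where the pooled levels of a pair of classes differed at least 2-fold and 1 of them reached 1 CPM. HAS2 did not enter, since fewer than 20 cells had a read. Between epiblast- and hypoblast-like cells, SPP1 and TNFAIP6 (2 of 5 members) were higher in epiblast-like cells, where 18.4% of all 12663 identifiers were, and CD44 (1 of 5) was higher in hypoblast-like cells, where 6.78% were. HAS3 and VCAN passed in neither direction. Against trophectoderm-like cells, SPP1, TNFAIP6, CD44 and VCAN (4 of 5) were higher in epiblast-like cells (23% of all 12875) and HAS3 (1 of 5) in trophectoderm-like cells (11.6%). Between hypoblast- and trophectoderm-like cells, SPP1, CD44 and VCAN (3 of 5) were higher in hypoblast-like cells (14.6% of all 12354), and HAS3 and TNFAIP6 (2 of 5) in trophectoderm-like cells (13.8%). The TNFAIP6 call of this pair was lost under several of the alternatives given at the end. These comparisons share their cells, and SPP1 and TNFAIP6 were chosen by their fold over the other classes together, so nothing is read from these counts.

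In the smaller trophectoderm-like cluster all 4 members that entered, SPP1, TNFAIP6, HAS3 and VCAN, were at least 2-fold higher than in the larger cluster, where 10.0% of all 12016 identifiers were; 8.56% were higher in the larger one. For SPP1 (7.13 against 3.23 CPM) and VCAN (6.11 against 1.39 CPM) this was set by 1 cell. That cell held 70.4% of the SPP1 and 85.9% of the VCAN reads of the smaller cluster. Without the highest cell of each cluster SPP1 was 2.17 against 2.37 CPM and VCAN 0.885 against 1.18 CPM, the opposite order. The shares of cells at 10 CPM or more were 5 of 51 and 5 of 60 for SPP1 and 4 of 51 and 3 of 60 for VCAN. TNFAIP6 (2.35 against 0.598 CPM) also rested on few cells, with a read in 7 of 51 and 4 of 60. In the smaller cluster 1 cell held 50.2% of the TNFAIP6 reads. Without the highest cell of each cluster TNFAIP6 was 1.19 against 0.311 CPM, the same order.

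**Figure D4:**
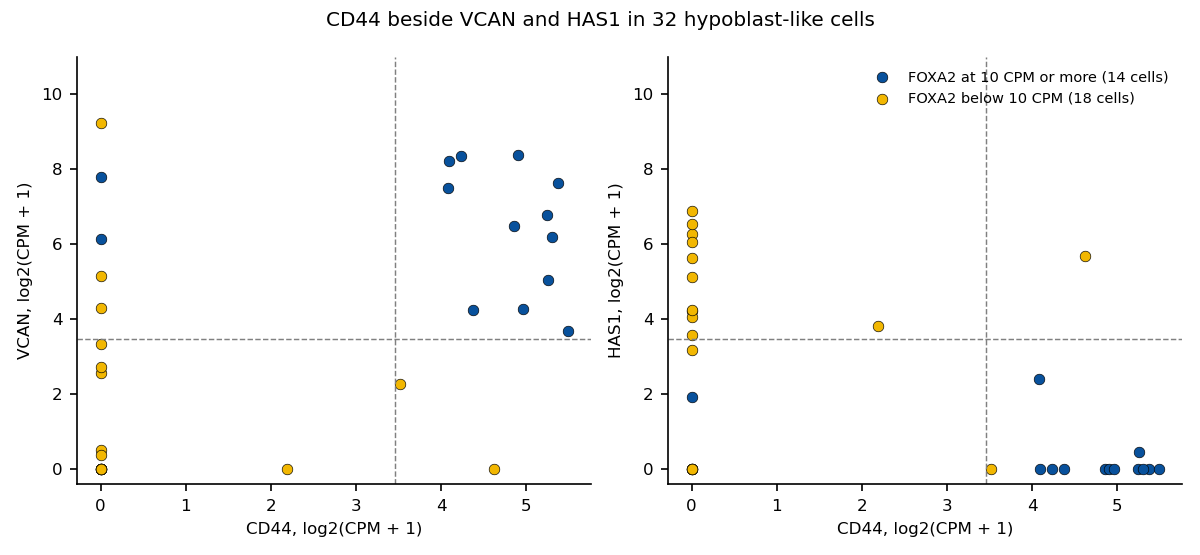
CD44 (horizontal) against VCAN (left) and HAS1 (right) in the 32 hypoblast-like cells, all as log2(CPM + 1), with 10 CPM as dashed lines. Dark blue points are the 14 cells with FOXA2 at 10 CPM or more and yellow points the other 18. VCAN and CD44 are together in 12 cells, while HAS1 and CD44 are together in 1 cell.

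Most of the hypoblast-like cells held CD44 with VCAN, or HAS1, but seldom CD44 with HAS1. The others had VCAN alone, CD44 alone or none of these genes at 10 CPM or more. Of the 14 cells with CD44 at 10 CPM or more, 12 had VCAN at that level and 1 had HAS1, where the products of the separate shares are 7.44 and 5.25 cells. Of the 18 cells below, 5 had VCAN and 11 had HAS1. VCAN ran from 0 through 80.8 to 336 CPM in the first set and from 0 through 0.360 to 599 CPM in the second, and HAS1 from 0 through 0 to 50.8 CPM and from 0 through 14.4 to 117.9 CPM. The sets overlapped for both genes. Over the 32 cells the rho was 0.44 for CD44 and VCAN, -0.52 for CD44 and HAS1 and -0.55 for VCAN and HAS1.

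Some hypoblast and epiblast markers of the same cells followed this split and others did not. FOXA2, GATA4 and NANOG were picked for their values. FOXA2, a transcription factor of the hypoblast, was at 10 CPM or more in 14 cells: CD44 was at that level in 12 of them and 2 of the other 18, VCAN in 14 and 3, HAS1 in 0 and 12, and SPP1 in 3 and 4. GATA4, a factor of the hypoblast lineage, was at 10 CPM or more in 12 of the 14 cells with CD44 at that level and 5 of the 18 below it, and NANOG, a pluripotency factor, in 4 and 12. Of the other 6 hypoblast markers the counts ran from COL4A1, in 12 and 4, to GATA6, in 13 and 17, and PDGFRA, in all 32. Of the epiblast markers GDF3 was at 10 CPM or more in 4 and 15, and POU5F1, another pluripotency factor, in all 32. The part of mixed wells in these cells was not tested.

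The rest of the pathway was read from 9 lists with 60 genes, of which 54 are not among the 6. Of these 54, 15 were at 10 CPM or more in some class and 39 were not. Between epiblast- and hypoblast-like cells 24 of them entered, 5 were at least 2-fold higher in epiblast-like and 8 in hypoblast-like cells, where 18.4% and 6.78% of all identifiers were, with a median log2 ratio of 0.05 against 0.18 over all identifiers. Against trophectoderm-like cells 22 entered, 7 were higher in epiblast-like and 4 in trophectoderm-like cells, beside 23% and 11.6% of all identifiers (median log2 ratio 0.29 against 0.14). Between hypoblast- and trophectoderm-like cells 23 entered, and 7 and 4 were higher, beside 14.6% and 13.8% of all identifiers (0.47 against -0.03).

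**Figure D5:**
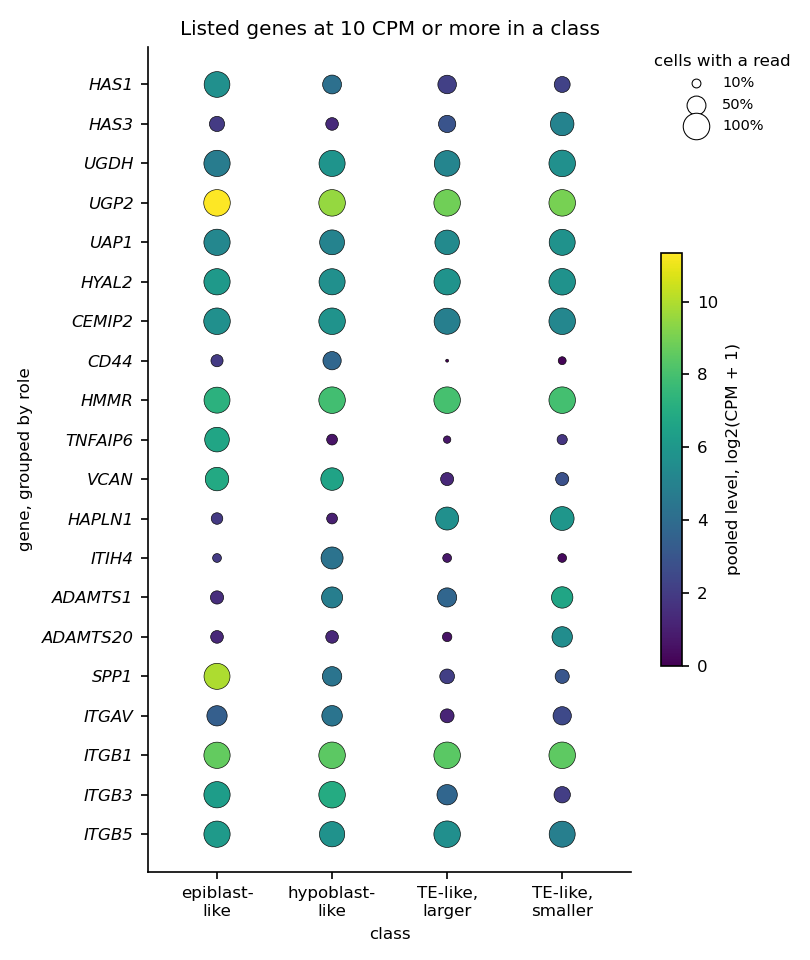
The 20 listed genes, members included, at 10 CPM or more in a class (rows, in the order of their roles) in 4 groups of cells (columns; TE-like, trophectoderm-like). Colour is the pooled level as log2(CPM + 1) and dot area grows with the percent of cells with a read. HAS1, TNFAIP6 and SPP1 are brightest in epiblast-like cells, CD44 and ITIH4 in hypoblast-like cells, and HAS3, HAPLN1, ADAMTS1 and ADAMTS20 in the smaller trophectoderm-like cluster.

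The enzymes that make the sugar precursors of hyaluronan were found in most cells of every class. UGP2, which makes UDP-glucose, had a read in every cell and stood at 2575, 754 and 489 CPM in epiblast-, hypoblast- and trophectoderm-like cells. UGDH, which oxidizes it to UDP-glucuronate, stood at 25.2, 57.02 and 40.98 CPM, and UAP1, which makes UDP-N-acetylglucosamine, at 36.8, 32.4 and 46.4 CPM. UAP1 had a read in 49 of the 50 epiblast-like cells, 28 of the 32 hypoblast-like cells and 90.1% of the trophectoderm-like class. UGP2 also feeds glycogen synthesis and is not particular to hyaluronan. Of the 7 genes of hyaluronan breakdown 2 passed 10 CPM, the hyaluronidase HYAL2 at 66.2, 49.2 and 54.6 CPM and CEMIP2 at 48.5, 56.1 and 32.6 CPM, neither past 2-fold between classes.

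Of the other hyaluronan receptors HMMR was found in almost every cell, at 148.5, 235.9 and 248.2 CPM in epiblast-, hypoblast- and trophectoderm-like cells. HMMR is also a mitotic spindle protein. LYVE1, STAB1, STAB2 and LAYN were below 1 CPM in every class. Among the hyaluronan-binding matrix genes, HAPLN1, the link protein that fixes proteoglycans such as versican to hyaluronan, was highest in the class where VCAN was lowest: 54.8 CPM in trophectoderm-like cells, with a read in 86 of them, against 2.85 CPM and 0.996 CPM in the epiblast- and hypoblast-like cells. It was at 60.6 CPM in the smaller and 49.4 CPM in the larger trophectoderm-like cluster, with medians of 30.5 and 6.45 CPM and 36 of 51 and 26 of 60 cells at 10 CPM or more. The highest cell of the larger cluster stood at 755.9 CPM. The other 8 genes of that list were below 10 CPM in every class, and 7 of them below 1 CPM. PTX3, which crosslinks heavy chains in the coat of the egg, was among these.

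The list of inter-alpha-trypsin inhibitor genes held 5 heavy chains and AMBP, which encodes the bikunin light chain. Of ITIH1, ITIH2, ITIH3, ITIH4, ITIH5 and AMBP, only ITIH4 reached 10 CPM in a class, with 18.96 CPM and a read in 22 of 32 hypoblast-like cells, against 2.91 CPM and 5 of 50 epiblast-like cells and 0.451 CPM and 11 trophectoderm-like cells. ITIH5 reached 1.00 CPM in hypoblast-like cells, and the other 4 stayed below 1 CPM in every class. ITIH4 lacks the bikunin light chain that the other inter-alpha-trypsin inhibitors carry.

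Of 6 proteases that cut versican, 2 passed 10 CPM. ADAMTS1 stood at 54.7, 26.8 and 1.83 CPM in trophectoderm-, hypoblast- and epiblast-like cells, and at 99.97 CPM in the smaller against 11.96 CPM in the larger trophectoderm-like cluster. A few cells carried the pooled level, the highest at 1536 CPM: 18 of 51 and 20 of 60 cells of these clusters were at 10 CPM or more, and 12 of 32 hypoblast-like cells (37.5%) against 34.2% of the trophectoderm-like class. ADAMTS20 stood at 44.1 CPM in the smaller cluster, with a read in 30 of 51 cells, against 0.470 CPM in the larger and 1.39 and 1.37 CPM in epiblast- and hypoblast-like cells. ADAMTS4, ADAMTS5, ADAMTS9 and ADAMTS15 were below 10 CPM in every class.

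SPP1 was the one gene of its family above 1 CPM: IBSP, DMP1, DSPP and MEPE, the other members of this family of mineral matrix proteins, were below 1 CPM in every class. Of 9 integrin subunits that form receptors for osteopontin, 4 passed 10 CPM. ITGB1 stood at 385, 354 and 355 CPM and ITGB5 at 69.96, 53.1 and 38.2 CPM in epiblast-, hypoblast- and trophectoderm-like cells. ITGB3 stood at 76.6, 121.8 and 7.69 CPM, with a read in 49 of 50, 32 of 32 and 54 cells. ITGAV, which pairs with each of these beta subunits, stood at 9.58, 19.7 and 2.93 CPM. The share of cells with ITGAV at 10 CPM or more was 28% in epiblast-like and 28.1% in hypoblast-like cells, with medians of 1.71 and 1.63 CPM, and the highest hypoblast-like cell stood at 252.5 CPM. Both ITGB3 and ITGAV thus passed 2-fold over trophectoderm-like cells in epiblast- and in hypoblast-like cells. The proteases that cleave osteopontin, F2 (thrombin), MMP3, MMP7 and MMP9, were all below 10 CPM, and MMP3 had no read.

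Fibroblasts and macrophages are familiar sources of osteopontin, TNFAIP6 and CD44. Of 8 fibroblast or mesenchyme markers only THY1 reached 10 CPM, at 28.2 CPM in epiblast-like cells, and 6 were below 1 CPM in every class. COL1A1 was at 1.45, 0.576 and 3.06 CPM in the 3 classes and at 4.25 CPM in the smaller trophectoderm-like cluster, with the highest cell at 38.9 CPM, and COL1A2, COL3A1, DCN and LUM were at or near 0. Summed over the 8 markers the level ran from 0 to 147.2 CPM in epiblast-like, from 0 to 41.4 CPM in hypoblast-like and from 0 to 79.3 CPM in trophectoderm-like cells. Of 6 macrophage markers none reached 10 CPM in a class. CD68, a lysosomal protein of many cell types, was at 8.78, 8.96 and 9.93 CPM, and at 13.96 CPM in the smaller trophectoderm-like cluster, where 26 of 51 cells were at 10 CPM or more, and the other 5, PTPRC among them, were below 1 CPM in every class. Their summed level ran from 0.2496 to 27.8, from 0.401 to 37.1 and from 0 to 52.7 CPM.

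The genes whose levels were most like those of each member over all kept cells were taken by Spearman's rho on log2(CPM + 1) among 13022 named genes. For SPP1 they were CACNA2D1 (0.73), ZNF827 (0.73), NANOG (0.72), GDF3 (0.72) and PYCARD (0.71). For TNFAIP6 they were FGF4 (0.77), TMEM271 (0.77), LDB2 (0.77), FGF2 (0.76) and CRIPTO3 (0.72), the last a copy of CRIPTO whose reads the counting could split. For VCAN they were SIPA1L2 (0.65), GPC4 (0.64), NES (0.63), KCNK12 (0.62) and SP8 (0.61). NANOG and GDF3 were the closest epiblast markers to SPP1, and FGF4 was the closest to TNFAIP6. The cells share the class differences by which they were clustered, so these rho are descriptions.

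For CD44 the closest genes were RSPO3 (0.56), GATA4 (0.50), PECAM1 (0.49), IL6R (0.48) and CA4 (0.48). RSPO3 and GATA4 are hypoblast markers of the list that named the class. For HAS3 they were WNT6 (0.58), UPK2 (0.55), GRAMD2A (0.54), ERVMER34-1 (0.54) and SLC16A6 (0.53).

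Within the 50 epiblast-like cells alone, other genes came first. Among 10777 genes these were ZFP62 (0.64), SOHLH2 (0.63) and IFITM3 (0.61) for SPP1, SERPINH1 (0.63), TMSB15A (0.63) and ABHD17B (0.60) for TNFAIP6, and TERF1 (0.68), CD24 (0.68) and VSIG10 (0.65) for VCAN. None of these 9 is among the genes closest over all cells, and the lists of the 3 members share no gene. Being the highest of many, these values are larger than a gene chosen beforehand would give.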

How the data were processed

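The authors deposited read counts per Ensembl gene for 217 cells prepared by SMART-seq2, a full-length method without molecular identifiers, so copies of 1 cDNA are counted more than once. Per the study's methods, reads were trimmed with FastP, aligned to Pan_tro_3.0 and counted with STAR. The submitters' processing notes name Trim Galore 0.6.6, STAR 2.7.7a and GRCh38 instead. The identifiers are all chimpanzee ones. Symbols were matched for 18783 of the 33729 identifiers. Gene lengths were not used, so levels of different genes were not ranked against each other.

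Cells with fewer than 4000 reads or 8000 detected genes were left out. Scanpy 1.11.5 normalized and log-transformed the counts, and took 50 principal components and 30 neighbours. Clusters came from Leiden (leidenalg 0.10.2, resolution 1, seed 0) on identifiers with a read in at least 20 cells and took the class whose markers had the highest mean standardized level. Intervals for shares are exact Clopper-Pearson and for CPM exact Poisson, both at 95%. A pseudocount of 1 CPM was used for log2 values. Python 3.11.15 with numpy 2.4.6, pandas 2.3.3 and scipy 1.17.1 was used, and the fold and interval code was tested on simulated data.

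The members and lists were chosen with earlier results of these data known. The text names the members, each listed gene at 10 CPM or more in a class, and the 5 genes (3 within epiblast-like cells) most like each member with reads in at least 20 cells. Other listed genes were named after their values were seen. Alternatives changed the filter, clustering, thresholds, depth and summary. Sequences and gene positions were not used here.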

Additional observations from a re-analysis of the deposited data

Results flagged for a closer look

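The 24 cells with too few detected genes entered no comparison, and 4 of the 6 genes had reads there in a share of cells above the 12.5% that a count of 0 allows by the limit of 3 counts. All 4 were also above 14.2%, the exact upper limit for 0 of 24 cells. Both limits belong to a gene read in none of the cells, so passing them shows only that reads were found. A read was found in 29.2% of these cells for SPP1 (95% exact binomial interval 12.6% to 51.1%), in 16.7% for TNFAIP6 (4.74% to 37.4%), in 29.2% for HAS3 (12.6% to 51.1%) and in 50% for VCAN (29.1% to 70.9%). Their pooled levels were 11.4 CPM for SPP1, 9.79 CPM for TNFAIP6, 12.4 CPM for HAS3 and 60.7 CPM for VCAN. The highest SPP1 cell among them was at 1036 CPM. Together the 24 cells held 500 SPP1 reads, most of them in the cell with 7984 genes at 156.9 CPM. The cell at 1036 CPM therefore had fewer total reads than any kept cell. CD44 was read in 2 of the 24 cells and HAS2 in none.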

How the results depend on the processing

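With 1 sample there was no replicate to leave out. No paired analysis was possible because the cells share 1 condition. Of the repeats of shares and fold counts, 331 stayed within the main interval or within 1.5 times the main count. The other 35 did not, mostly where the threshold itself was changed. This tally leaves out the remaining values, among them the pooled levels and log2 ratios, which were less stable. Almost as many of those moved as stayed, and 4 reversed. Pooled SPP1 in epiblast-like cells, for example, lay between 426.9 and 1216 CPM over the alternatives. At 100 CPM instead of 10, the share was 66%, 6.25% and 0.901% for SPP1 in epiblast-, hypoblast- and trophectoderm-like cells, 36% and 0% for TNFAIP6 in epiblast- and trophectoderm-like cells, 0% for CD44 in epiblast- and hypoblast-like cells, 0%, 0% and 2.703% for HAS3 in the 3 classes and 28%, 25% and 0.901% for VCAN. At 1 CPM it was 46.9% and 25.2% for SPP1 and 12.5% and 9.01% for TNFAIP6 in hypoblast- and trophectoderm-like cells, 26%, 21.9% and 55.9% for HAS3 in the 3 classes and 18.9% for VCAN in trophectoderm-like cells. Counting only cells with at least 10 reads left a share with a read of 0% for CD44, 0.901% for HAS2 and 15.3% for VCAN in trophectoderm-like cells, and 0% for HAS2 in epiblast-like cells.

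Leaving out cells with 3 markers of another class at 10 CPM left 0 epiblast-like and 1 hypoblast-like cell, since some trophectoderm markers are at that level in most cells, so it gave values only for 98 trophectoderm-like cells, where SPP1 at 10 CPM or more fell to 3.06%. A milder form was therefore chosen after seeing the data: without cells whose summed level of another class's markers reached the lowest cell of that class, 37, 24 and 70 cells remained. In these sets the share with a TNFAIP6 read was 94.6% for epiblast-like cells and 4.17% for hypoblast-like cells, the share with HAS2 was 0% for trophectoderm-like cells, and HAS3 was at 10 CPM or more in 0% of epiblast- and hypoblast-like cells. Between hypoblast- and trophectoderm-like cells the number of members higher in the latter was 1 instead of 2 with clusters on UMAP coordinates, with mean log2(CPM + 1), and without either the highest cell or the cell with the most reads of each class, the latter added after seeing the data. The log2 ratio of TNFAIP6 for this pair reversed from -1.45 to 0.15 under the first and 0.0096 under the second. Without those cells TNFAIP6 was still higher in trophectoderm-like cells (0.883 against 0.360 CPM), with both levels under the 1 CPM needed to enter. On UMAP coordinates there were 7 clusters instead of 4, and all cells but 1 kept their class. The smaller and larger trophectoderm-like clusters were not compared in that setting.

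Between the trophectoderm-like clusters, the log2 ratio reversed to -0.13 for SPP1 and -0.41 for VCAN without the highest cell of each, also added after seeing the data. With random seed 2 (39 and 72 cells) HAS3 stayed 4.62-fold higher in the smaller cluster. Over the alternatives for the other calls past 2-fold between classes, the direction did not change. The log2 ratio of SPP1 lay between 5.37 and 6.30 over hypoblast-like and between 7.14 and 8.82 over trophectoderm-like cells. Thinning each cell to 2532312 reads left out 20 cells. HAS2, with reads in 11 cells, could not be ordered between the classes at this depth.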
